A study of Homo sapiens with 36 samples.

Results

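The genes described here are 8 members of the homologous recombination and Fanconi anaemia pathways, BRCA1, BRCA2, BARD1, XRCC2, PALB2, FANCD2, FANCI and FANCA, followed in HCT116 cells through 5-fluorouracil (5-FU) treatment. They were chosen by gene symbol through their Ensembl identifiers, and all 8 were among the 15891 genes listed. HCT116 is an established line from a human colorectal carcinoma. 5-FU is a pyrimidine analogue that inhibits thymidylate synthesis and is also incorporated into RNA and DNA. The cells were seeded, left for 48 h and then given 10 µM 5-FU for 48 h. Cells were collected at 6 times, D0 just before the drug was added, D1 and D2 within the exposure, and D7, D14 and D16 after it. On each day polyadenylated RNA was sequenced from a heavy polysomal pool, the sucrose gradient fractions in which an mRNA carries more than 3 ribosomes, and from the cytoplasm that was loaded on the gradient. This gave 12 groups of 3 libraries, lettered A, B and C for the batch named in the labels, and 36 libraries in all. All cells met emetine, which arrests ribosomes, for a short time before lysis. No drug-free culture of the later days is among the samples, so the drug and the time in culture cannot be told apart. What happened to the cells between D14 and D16 is not given in the sources used here.

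Homologous recombination copies an intact sister chromatid to mend a broken DNA molecule, and it works mainly in S and G2 phase. The Fanconi pathway unhooks crosslinks between DNA strands and protects stalled replication forks. In it a core complex, of which FANCA is a subunit, acts on the paired proteins FANCD2 and FANCI, which are monoubiquitinated and loaded on DNA. BRCA1 and BARD1 form a ubiquitin ligase that favours resection of the broken ends, PALB2 links BRCA1 to BRCA2, and BRCA2 and XRCC2 act downstream, where the resected end is readied to invade the sister chromatid. Many of these genes are transcribed most in proliferating cells. In bulk RNA of this kind, fewer cells that express a gene and less RNA per cell cannot be told apart.

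Values are normalised counts, that is gene read counts divided by a size factor per library. Changes are on the log2(value + 1) scale with the standard error from limma, and n = 3 libraries per group. A gene rose or fell where limma's Benjamini-Hochberg adjusted p, corrected over all genes tested in that comparison, was under 0.05. Read totals ran from 46.1 to 55.7 megareads in the heavy pool and from 41.0 to 103.6 megareads in the cytoplasm, and each member had at least 15 reads in every library. The labels do not say that the letters were separate cultures, so p-values measure the spread between these libraries. Some cytoplasmic libraries stood apart. Library A of D7 stood out for its ribosomal protein genes, which took 23.1 percent of its reads, the highest share of all. In libraries B of D14 and D16 the deviation of a gene from its group mean followed its GC content (Pearson r over genes 0.738 and 0.690). Calls of members that were lost without them are named below. In both letter-B libraries BRCA1, BRCA2, BARD1, XRCC2, PALB2 and FANCI were the lowest of their group, and FANCD2 and FANCA the highest. The GC content of the longest transcript was 36.3, 38.0, 39.8, 41.9 and 42.8 percent in BRCA2, BARD1, XRCC2, BRCA1 and PALB2, and 43.4, 44.0 and 55.4 percent in FANCI, FANCD2 and FANCA. Among all genes FANCI, FANCD2 and FANCA stood at percentiles 28.5, 30.8 and 71.5 of GC content. FANCI and FANCD2 lay close in it, yet in libraries B of D14 and D16 FANCI deviated by -0.35 and -0.16 and FANCD2 by 0.30 and 0.34. A part of GC content in the deviations of the members was not tested. The epithelial markers EPCAM, CDH1, KRT8, KRT18, KRT19 and CDX2 were listed, 6 of 10 looked for. Of 10 markers of blood, immune, endothelial, stromal and liver cells, COL1A1 alone was listed, at 212 to 865 normalised counts. When libraries were scaled to equal totals in place of the authors' size factors, the median of all genes against D0 moved by 0.19 to 0.42 in the heavy pool and by -0.32 to 0.16 in the cytoplasm. The share of calls that were rises then became 64.5 to 71.7 percent in the heavy pool, against 42.5 to 49.7 percent with the authors' factors. In the cytoplasm it became 36.2 to 77.5 percent, against 53.9 to 60.5 percent.

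Promoter windows are shown for BRCA1 and FANCA because theirs alone, of the 7 members with a window in the RefSeq promoter table (GRCh38.p14), held a word of the E2F site, the element through which many replication and repair genes follow the cell cycle. The window is the 250 bases before the annotated start. On both strands the window was searched for TTCCCGC and for the variants of it that read TTCGCGC or otherwise TTGCCGC or otherwise TTGGCGC. The element known as the cell cycle genes homology region was searched as TTTGAA or as TTCGAA. A window counted once however many of these overlapped in it. Both sequences below are printed 5′ to 3′ in the direction of the gene, with the E2F word in capitals.
BRCA1 (chr17:43125365-43125614, minus strand): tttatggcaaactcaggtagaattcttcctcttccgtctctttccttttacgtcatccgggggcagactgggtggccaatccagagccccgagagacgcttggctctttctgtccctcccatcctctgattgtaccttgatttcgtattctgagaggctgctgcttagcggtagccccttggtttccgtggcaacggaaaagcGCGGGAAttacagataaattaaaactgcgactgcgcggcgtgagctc
FANCA (chr16:89816648-89816897, minus strand): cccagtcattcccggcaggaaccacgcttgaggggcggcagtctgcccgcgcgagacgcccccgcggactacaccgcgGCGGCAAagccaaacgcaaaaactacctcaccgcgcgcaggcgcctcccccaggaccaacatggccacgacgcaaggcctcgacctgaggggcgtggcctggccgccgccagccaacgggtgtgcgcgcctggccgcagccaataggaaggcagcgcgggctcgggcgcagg
In BRCA1 the word GCGGGAA began 47 bases before the start. In FANCA the word GCGGCAA began 172 bases before it. The windows of BRCA2, BARD1, XRCC2, PALB2 and FANCD2, and that of a second BRCA1 start, held none of these letters, and none of the 8 windows held a word of the homology region. Among 14724 windows of protein-coding genes in the count table, 16.2 percent held an E2F word and 10.1 percent a word of the homology region. A match is a run of letters and not a shown binding site.

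Before the drug the members spanned a wide range of levels. Per kilobase of exon, the heavy pool at D0 held on average 609.1 normalised counts of FANCI and 608.8 of FANCA, whose libraries overlapped, and 282 of FANCD2, 208 of BRCA1, 162 of PALB2, 129 of BARD1, 99.6 of XRCC2 and 20.7 of BRCA2. From FANCA downward, no library of a gene overlapped one of the next in this order. In the cytoplasm at D0 the levels per kilobase were 348 for FANCI, 294 for FANCA, 157 for FANCD2, 145 for BRCA1, 136 for XRCC2, 132 for PALB2, 70.0 for BARD1 and 22.3 for BRCA2, and FANCI overlapped FANCA, as did the neighbours from FANCD2 to PALB2. By D2 the heavy pool order had changed, because PALB2 at 184 per kilobase stood above FANCA at 132.

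**Figure D1:**
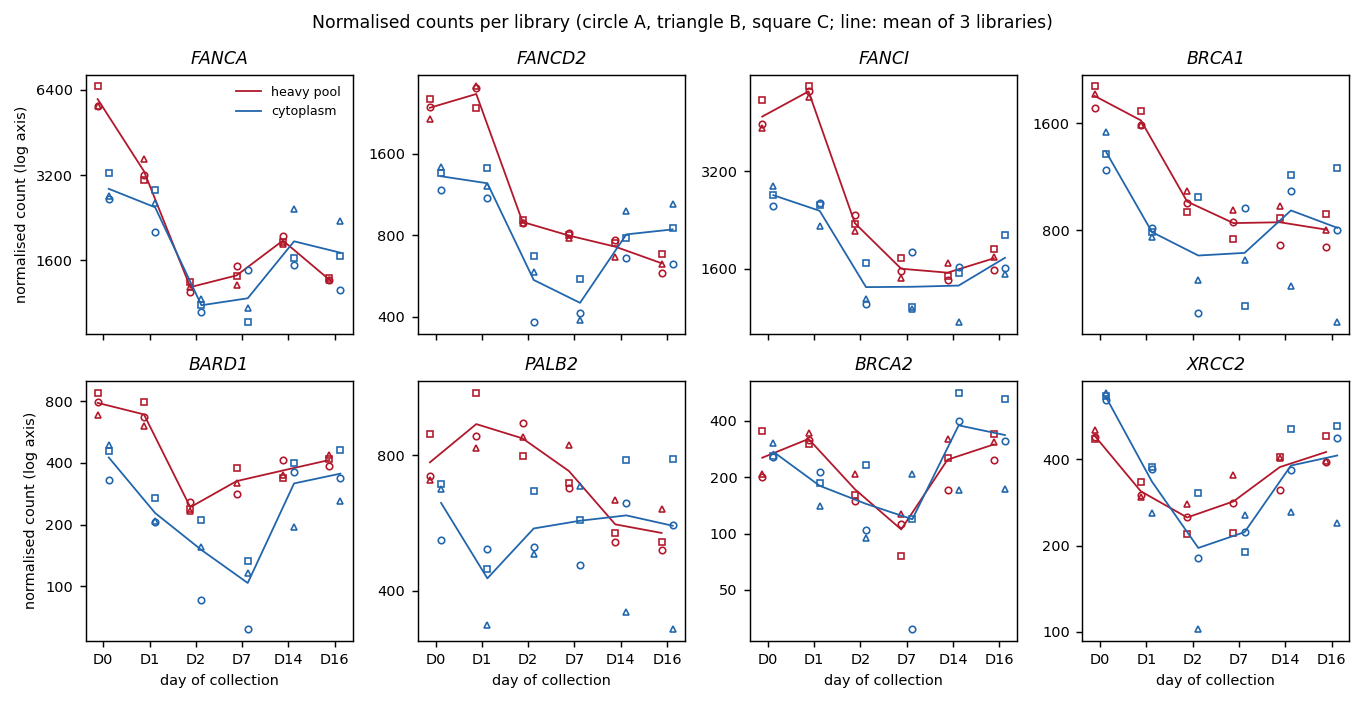
Normalised counts of each member (log axis) by day of collection, with each library as a symbol and the mean of 3 libraries as a line, the heavy pool in red on the left of each pair and the cytoplasm in blue. FANCA in the heavy pool averaged 5927 at D0 and 1287 at D2, and the cytoplasmic libraries of D14 and D16 spread more widely than those of the heavy pool.

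In the heavy pool 6 of the 8 members were lower than D0 at D2, 7 at D7, 7 at D14 and 6 at D16, and the cytoplasm gave the same counts at D2 and D7. BRCA1, BARD1, FANCD2, FANCI and FANCA were called on all of these days, and PALB2 only at D14 and D16. At D2, BRCA1, BARD1, XRCC2, FANCD2, FANCI and FANCA fell, against a background of 34.5 percent of all genes tested that fell at D2. At D7, 7 of 8 fell (background 36.5 percent) and PALB2 did not pass. At D14, 7 of 8 fell (background 37.6 percent), BRCA2 being the exception. At D16, 6 of 8 fell (background 36.6 percent), and BRCA2 and XRCC2 did not pass. In the heavy pool at D1, FANCA and XRCC2 alone fell (background 26.9 percent) and FANCI alone rose (background 20.1 percent). The median change of the 8 members was -0.01 at D1, -1.04 at D2, -1.26 at D7, -1.14 at D14 and -1.08 at D16, beside -0.06, -0.03, -0.11, -0.02 and 0.02 over all genes. With equal library totals 1 member rose and 6 fell at D2, 7 fell at D7, 5 fell at D14, and 1 rose and 5 fell at D16.

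In the cytoplasm most members fell at D2 and D7 too, and fewer passed at D14 and D16. At D2, 6 of 8 fell (background 10.6 percent of genes), and at D7, 7 of 8 fell (background 15.7 percent). At D14, FANCI alone passed (background 5.05 percent), and at D16 FANCI and FANCA passed (background 7.26 percent). At D1 limma called 0 of 8 (background 17.9 percent in either direction), while 2 had an unadjusted p under 0.05, edgeR called 0 and DESeq2 1, XRCC2. With the letter as a block BARD1 (-0.89, adjusted p = 0.0422) and XRCC2 (-1.004, adjusted p = 0.0222) passed at D1. The median change of the members was -0.59 at D1, -1.17 at D2, -1.43 at D7, -0.62 at D14 and -0.66 at D16, beside values between -0.02 and 0.01 over all genes. The cytoplasmic spread was wide. The count at D7 was 6 without library A of that day, 4 without the letter A on all days and 2 without the letter C. The count at D14 was 3 without the letter-B libraries of D14 and D16, which added FANCD2 (-0.87, adjusted p = 0.0292) and FANCA (-0.84, adjusted p = 0.0130), and 0 without the letter B or C on all days. At D16 it was 0 without the letter A or C, 1 without the letter B, 1 with edgeR and 0 with equal library totals. Calls over all genes dropped as well when libraries were left out. They went from 5398 to as few as 1322 at D7, from 2035 to 253 at D14 and from 2659 to 438 at D16.

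**Figure D2:**
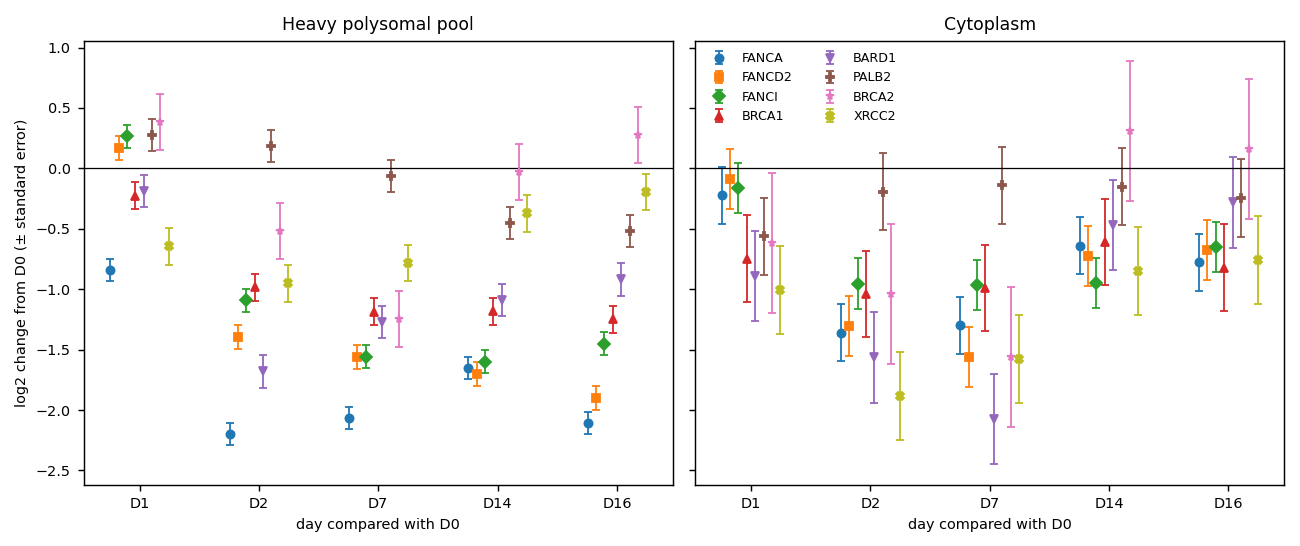
Change of each member from D0 (log2 scale, points, with the standard error as bars, n = 3 libraries per group) on 5 days, in the heavy pool on the left and the cytoplasm on the right. At D2 the heavy pool values ran from -2.20 for FANCA to 0.18 for PALB2, and error bars were longer in the cytoplasm.

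FANCA (ENSG00000187741, chr16:89737549-89816657, minus strand, GRCh38 with GENCODE 29), the core complex subunit, fell furthest in the heavy pool among the members at D2, D7 and D16. Its heavy pool counts in letters A, B and C were 5609, 5597 and 6576 at D0, 3204, 3633 and 3061 at D1, 1233, 1289 and 1339 at D2, 1531, 1307 and 1409.6 at D7, 1948, 1834 and 1854 at D14, and 1364, 1359 and 1381 at D16. Every later library lay below every D0 library, and the fall was already there at D1 (-0.84 ± 0.09, limma adjusted p = 1.2e-07). At D2 the change was -2.20 ± 0.09 (4.59-fold lower, adjusted p = 3.5e-15). The heavy pool then rose again between D7 and D14 (0.41 ± 0.09, adjusted p = 0.00056), where 29.5 percent of all genes rose, and fell between D14 and D16 (-0.46 ± 0.09, adjusted p = 0.0018), the only member to do so (background 10.2 percent). Without the letter A this last step did not pass (-0.43, adjusted p = 0.0740). In the cytoplasm the counts were 2641, 2697 and 3243 at D0, 2007, 2555 and 2823 at D1, 1048, 1173 and 1112 at D2, 1476, 1084 and 968 at D7, 1541, 2428 and 1634 at D14, and 1257, 2194 and 1657 at D16. The groups of D2, D7, D14 and D16 lay wholly below D0, and library B was the highest at D14 and D16. The cytoplasmic fall was -1.36 ± 0.23 at D2 (adjusted p = 0.00034), -1.30 ± 0.23 at D7 (adjusted p = 0.00062) and -0.78 ± 0.23 at D16 (adjusted p = 0.0297). The D7 fall did not pass without the letter C (adjusted p = 0.0691). The D16 fall did not pass without the letter A or C, with edgeR (adjusted p = 0.0504) or with equal library totals (-0.61, adjusted p = 0.117). Exons of FANCA overlap those of ZNF276 on the opposite strand over 2302 bases, and the strand setting of the counting is not given, so reads of this stretch are uncertain. ZNF276 itself rose at D2, by 0.48 ± 0.13 in the heavy pool (adjusted p = 0.0032) and by 0.61 ± 0.20 in the cytoplasm (adjusted p = 0.0295), while FANCA fell.

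FANCD2 (ENSG00000144554, chr3:10026414-10101930, plus strand) and FANCI (ENSG00000140525, chr15:89243949-89317261, plus strand) encode the paired proteins that the core complex modifies. FANCD2 counts in the heavy pool were 2385, 2153 and 2547 at D0, 2780.3, 2832 and 2347 at D1, 889.6, 885 and 911 at D2, 814, 779 and 800.1 at D7, 768, 663 and 746 at D14, and 583, 627 and 682 at D16. D1 overlapped D0, and from D2 on every library was below all of D0. The fall was -1.40 ± 0.10 at D2 (2.63-fold lower, adjusted p = 3.3e-11) and -1.90 ± 0.10 at D16 (3.74-fold lower, adjusted p = 1.95e-13). FANCI counts in the heavy pool were 4496, 4359 and 5337 at D0, 5656, 5452 and 5867 at D1, 2346, 2087 and 2209 at D2, 1576, 1494 and 1732 at D7, 1476, 1671 and 1524 at D14, and 1591, 1734 and 1847 at D16. FANCI was higher at D1 than at D0 in all libraries (0.26 ± 0.09, adjusted p = 0.0260), a rise that did not pass without the letter A (adjusted p = 0.201) or B (adjusted p = 0.159). It then fell below D0 at D2 (-1.09 ± 0.09, adjusted p = 9.2e-10) and further between D2 and D7 (-0.47 ± 0.09, adjusted p = 0.00022), where 28.3 percent of genes fell. The largest step of both genes lay between D1 and D2, with -1.56 ± 0.10 for FANCD2 and -1.35 ± 0.09 for FANCI.

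In the cytoplasm FANCD2 counts were 1169.9, 1427 and 1361 at D0, 1101, 1211 and 1418 at D1, 382, 587 and 672 at D2, 413, 388 and 550.0 at D7, 659, 978 and 779 at D14, and 628, 1044 and 848 at D16. The D2 and D7 libraries were lowest, at less than the level of any D0 library, and FANCD2 changed by -1.303 ± 0.25 at D2 and -1.56 ± 0.25 at D7 (adjusted p = 0.00085 and 0.00023). At D14 (-0.73) and D16 (-0.68) it did not pass (adjusted p = 0.0637 and 0.0720), but did with the letter as a block (adjusted p = 0.0171 and 0.02004). FANCI counts in the cytoplasm were 2509.6, 2887 and 2710.5 at D0, 2553, 2175 and 2527 at D1, 1249, 1291 and 1673 at D2, 1803, 1199.5 and 1221 at D7, 1615, 1094 and 1551 at D14, and 1614, 1539 and 2038 at D16. FANCI was the only member called below D0 in the cytoplasm on all of D2, D7, D14 and D16, with changes of -0.95, -0.96, -0.95 and -0.65, each ± 0.21 (adjusted p = 0.0025, 0.0024, 0.0058 and 0.0393). The call at D7 was lost without the letter C (adjusted p = 0.0828). The call at D14 was lost without the letter B (-0.72, adjusted p = 0.104) or C (-1.02, adjusted p = 0.125). The call at D16 was lost without any of the letters, with equal library totals (-0.49, adjusted p = 0.217), and without the libraries B of D14 and D16 (-0.57, adjusted p = 0.0651). Exons of FANCI overlap those of POLG on the opposite strand over 458 bases. POLG fell in the heavy pool at D14 (-1.28 ± 0.11) and D16 (-1.36 ± 0.11) as well, and the share of shared reads was not tested. FANCD2 has a pseudogene copy, FANCD2P2, whose reads the counting could have exchanged with it.

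BRCA1 (ENSG00000012048, chr17:43044295-43170245, minus strand) and its partner BARD1 (ENSG00000138376, chr2:214725646-214809711, minus strand) fell together at D2. BRCA1 counts in the heavy pool were 1766, 1926 and 2028 at D0, 1575, 1582 and 1727 at D1, 955, 1033 and 901 at D2, 843, 914 and 757 at D7, 729, 934 and 864 at D14, and 718, 801 and 891 at D16. The D1 libraries were just below D0 without passing (-0.23 ± 0.11, adjusted p = 0.0961), and all later libraries were well below. The change was -0.98 ± 0.11 at D2 (adjusted p = 5.4e-08), -1.19 ± 0.11 at D7 (adjusted p = 4.7e-09) and -1.25 ± 0.11 at D16 (2.38-fold lower, adjusted p = 9.4e-10), and none of the steps after D2 passed. BARD1 counts in the heavy pool were 791, 685 and 878 at D0, 668, 606 and 792 at D1, 258, 232 and 239 at D2, 280.3, 320.3 and 377 at D7, 413, 349 and 338 at D14, and 385, 438 and 416 at D16. BARD1 was lowest at D2 (-1.68 ± 0.13, 3.21-fold lower, adjusted p = 2.0e-10) and rose between D2 and D7 (0.41 ± 0.13, adjusted p = 0.0113), where 28.7 percent of genes rose. This rise did not pass without the letter B or C (adjusted p = 0.0751 and 0.0970) or with equal library totals (adjusted p = 0.0507). At D16 BARD1 was still below D0 in the heavy pool (-0.92 ± 0.13, adjusted p = 2.0e-06).

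In the cytoplasm BRCA1 counts were 1181, 1514 and 1307 at D0, 813, 768 and 792 at D1, 468, 580.4 and 990.1 at D2, 926, 658 and 489 at D7, 1031, 557 and 1139.9 at D14, and 800.02, 442 and 1197 at D16. From D2 on libraries of a day were far apart, with B the lowest at D14 and D16, and the F test over all days did not pass (adjusted p = 0.126). The falls at D2 (-1.04 ± 0.36, adjusted p = 0.0409) and D7 (-0.99 ± 0.36, adjusted p = 0.0407) were near the threshold. The D2 fall was lost without the letter A or B (adjusted p = 0.237 and 0.149) or with equal library totals (adjusted p = 0.0566), and the D7 fall without any letter (adjusted p = 0.0733, 0.0922 and 0.1997 without A, B and C). BARD1 counts in the cytoplasm were 332, 486 and 457 at D0, 207, 207 and 269 at D1, 85.9, 156 and 209.6 at D2, 62.0, 116 and 133 at D7, 359, 193 and 399.5 at D14, and 338, 260.4 and 464 at D16. BARD1 had the largest cytoplasmic fall of the members at D7 (-2.08 ± 0.37, 4.22-fold lower, adjusted p = 0.00060), and it was -1.75 without library A of D7. It rose between D7 and D14 by 1.61 ± 0.37 (adjusted p = 0.0047), not passing without the letter A or C, and its D14 and D16 levels did not pass against D0 (-0.47 and -0.28).

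PALB2 (ENSG00000083093, chr16:23603160-23641310, minus strand), the bridge between BRCA1 and BRCA2, was the only member not called lower than D0 at D7 in either fraction. Its heavy pool counts were 718, 705 and 889.6 at D0, 881, 831 and 1100.0 at D1, 941, 877 and 796 at D2, 675, 844 and 692 at D7, 512, 635 and 537 at D14, and 491, 607 and 513 at D16. The libraries of D1, D2 and D7 overlapped those of D0, and those of D14 and D16 lay below them. The changes were 0.28 ± 0.13 at D1 (adjusted p = 0.0888), 0.18 ± 0.13 at D2 (adjusted p = 0.237) and -0.06 ± 0.13 at D7 (adjusted p = 0.692). With the recovered reads PALB2 passed as higher at D1 in edgeR (0.34, adjusted p = 0.0372) and DESeq2 (0.32, adjusted p = 0.0473), and at D2 in edgeR (0.30, adjusted p = 0.0498). It fell at D14 (-0.46 ± 0.13, adjusted p = 0.0041) and D16 (-0.52 ± 0.13, adjusted p = 0.0014), but not with equal library totals (-0.14 and -0.09, adjusted p = 0.402 and 0.560). Without the letter C the D14 fall did not pass (-0.32, adjusted p = 0.0581). In the cytoplasm PALB2 counts were 517, 671 and 691 at D0, 495, 335 and 448 at D1, 499, 483 and 666 at D2, 457, 684 and 575 at D7, 625, 359 and 779 at D14, and 558, 329 and 785 at D16. No day passed against D0 in the cytoplasm, the F test over all days gave an adjusted p of 0.652, and library B was lowest at D14 and D16.

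BRCA2 (ENSG00000139618, chr13:32315474-32400266, plus strand), which acts downstream of PALB2 and was the least abundant member, reached its low point at D7 and was back near D0 afterwards. Its heavy pool counts were 200.5, 208 and 355 at D0, 316, 343 and 302 at D1, 149, 208 and 162 at D2, 113, 127 and 75.8 at D7, 172, 321 and 252 at D14, and 249, 309 and 341 at D16. Only D7 lay wholly below D0 (-1.25 ± 0.23, 2.37-fold lower, adjusted p = 6.6e-05), and D2 did not pass (-0.52 ± 0.23, adjusted p = 0.0531), though it did with the letter as a block (adjusted p = 0.0419) and with DESeq2 (adjusted p = 0.0435). Between D7 and D14 BRCA2 rose in the heavy pool by 1.22 ± 0.23 (adjusted p = 0.00011), and at D14 and D16 its changes from D0 were -0.03 ± 0.23 and 0.27 ± 0.23. With equal library totals D16 was higher than D0 (0.70, adjusted p = 0.0113). In the cytoplasm the counts were 257, 304 and 260.0 at D0, 214, 140.4 and 186 at D1, 104, 94.7 and 234 at D2, 31.0, 208 and 119 at D7, 401, 171 and 565 at D14, and 314, 173 and 521 at D16. The lowest value belonged to library A of D7, and the D7 fall (-1.56 ± 0.58, adjusted p = 0.0464) did not pass without that library (-0.79, adjusted p = 0.279), nor with edgeR, DESeq2 or equal library totals (adjusted p = 0.0925, 0.0605 and 0.0506). At D14 and D16 library B was the lowest, and the other libraries were above all of D0.

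XRCC2 (ENSG00000196584, chr7:152644779-152676165, minus strand), which acts at strand invasion, fell as early as FANCA in the heavy pool, at D1, and by D16 was no longer called there. Its heavy pool counts were 477, 504 and 469 at D0, 299.7, 296 and 332 at D1, 252, 279.9 and 219.7 at D2, 282, 352 and 222 at D7, 313, 405 and 409 at D14, and 393, 396 and 483 at D16. It fell at D1 (-0.64 ± 0.15, adjusted p = 0.0014) and D2 (-0.95 ± 0.15, adjusted p = 9.1e-06), was still lower at D14 (-0.37 ± 0.15, adjusted p = 0.0320), and at D16 overlapped D0 (-0.19 ± 0.15, adjusted p = 0.253). The D14 fall did not pass with the other scalings or tools tried (equal totals -0.05, TMM -0.33, edgeR -0.25, DESeq2 -0.31) or without the letter A or B (-0.26 and -0.40). In the cytoplasm the counts were 642, 682 and 663 at D0, 369, 259 and 375 at D1, 181, 103 and 305 at D2, 223, 256 and 189 at D7, 367, 262 and 511 at D14, and 473, 239.9 and 524 at D16. All later libraries were below D0, with B lowest at D14 and D16. The fall passed at D2 (-1.89 ± 0.36, 3.70-fold lower, adjusted p = 0.00094), the largest cytoplasmic fall of any member on that day, and at D7 (-1.58 ± 0.36, adjusted p = 0.0038), but not at D14 (-0.85, adjusted p = 0.137) or D16 (-0.76, adjusted p = 0.168). The D7 fall did not pass without the letter A or C (adjusted p = 0.0573 and 0.0548).

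The steps between consecutive days placed most of the called falls between D1 and D2, within the exposure to the drug. In the heavy pool 6 of 8 members fell on this step (background 24.8 percent), all but PALB2 and XRCC2. In the cytoplasm FANCD2 (-1.21), FANCI (-0.79) and FANCA (-1.13) fell on it (background 4.89 percent), and none of these passed without the letter B or C, nor FANCI without A. With equal library totals FANCA alone passed. Over all genes 1348 were called on this cytoplasmic step, and as few as 11 with libraries left out. From D0 to D1, where limma called no member in the cytoplasm, the cytoplasmic change was larger than from D1 to D2 in BRCA1 (-0.75 against -0.29), BRCA2 (-0.62 against -0.42), BARD1 (-0.89 against -0.68), XRCC2 (-1.004 against -0.88) and PALB2 (-0.56 against 0.37). It was smaller in FANCD2 (-0.09), FANCI (-0.16) and FANCA (-0.22). XRCC2 in the heavy pool changed by -0.64 from D0 to D1 and by -0.31 from D1 to D2. Between D2 and D7 the heavy pool gave falls of FANCI and BRCA2 (-0.73 ± 0.23, lost without the letter C) and the rise of BARD1 (background 28.3 percent lower, 28.7 percent higher). The cytoplasm gave 0 of 8 in limma, at an unadjusted p under 0.05, in edgeR and in DESeq2 (background 21.3 percent in either direction). Between D7 and D14 BRCA2, FANCA and XRCC2 rose and PALB2 fell (-0.39 ± 0.13) in the heavy pool (background 29.5 percent higher, 28.9 percent lower). The rise of XRCC2 did not pass without the letter C (0.18), nor the fall of PALB2 without A (-0.39, adjusted p = 0.0889). In the cytoplasm BARD1, BRCA2 (1.87 ± 0.58), FANCD2 (0.84 ± 0.25) and FANCA (0.66 ± 0.23) rose on the same step (background 16.5 percent). The rise of FANCA did not pass without the libraries B of D14 and D16 (0.46, adjusted p = 0.0930), while XRCC2 then did (0.97, adjusted p = 0.0416). The count of 4 was 2 without library A of D7 and 0 without the letter C on all days. Over all genes 5656 were called on this cytoplasmic step, and as few as 1191 with libraries left out. The calls lost without library A of D7 were those of BRCA2 (1.10, limma adjusted p = 0.130) and FANCD2 (0.78, adjusted p = 0.0583). Between D14 and D16 the heavy pool gave the fall of FANCA, and the cytoplasm 0 of 8 members and 0 of 15889 genes in limma, with 230 genes and 0 members at an unadjusted p under 0.05 and 0 members in edgeR and DESeq2.

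The heavy pool relative to the cytoplasm of the same day describes how far an mRNA sat in large polysomes. At D0, FANCA (1.05 ± 0.18, adjusted p = 2.3e-05), BARD1 (0.90 ± 0.28, adjusted p = 0.0108), FANCD2 (0.84 ± 0.19, adjusted p = 0.00055) and FANCI (0.80 ± 0.16, adjusted p = 0.00015) were higher in the heavy pool, 4 of 8 members against a background of 26.7 percent. XRCC2 at -0.45 ± 0.29 (adjusted p = 0.198) had the lowest value. At D1, 6 of 8 were higher in the heavy pool (background 31.3 percent), all but BRCA2 and XRCC2, with BARD1 at 1.60 ± 0.28 and PALB2 at 1.15 ± 0.25. At D2, BARD1, PALB2, FANCD2 and FANCI passed (background 23.6 percent), and at D7 BARD1 (1.70 ± 0.28) and FANCD2 (0.84 ± 0.19) did (background 30.2 percent). Equal library totals gave 7 of 8 on both days, with the median of all genes moved by 0.48 at D2 and 0.60 at D7. On that scaling 9413 of all genes were called at D2 and 10765 at D7, of which 78.5 and 78.1 percent were higher. With the authors' factors it was 7340 and 9000 genes, of which 51.0 and 53.4 percent were higher. At D14 and D16 limma, edgeR and DESeq2 each called 0 of 8 in either direction (background 1.23 and 0.85 percent). At an unadjusted p under 0.05 there were 0 at D14 and 1 at D16, FANCD2 as lower (-0.39 ± 0.19). The call of BARD1 at D0 was lost without the letter A or C or with equal library totals (adjusted p = 0.0806, 0.0605 and 0.0584), and that of FANCA at D1 (0.43 ± 0.18) without any letter or with DESeq2. At D2, BARD1, PALB2 and FANCD2 did not pass without the letter A.

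**Figure D3:**
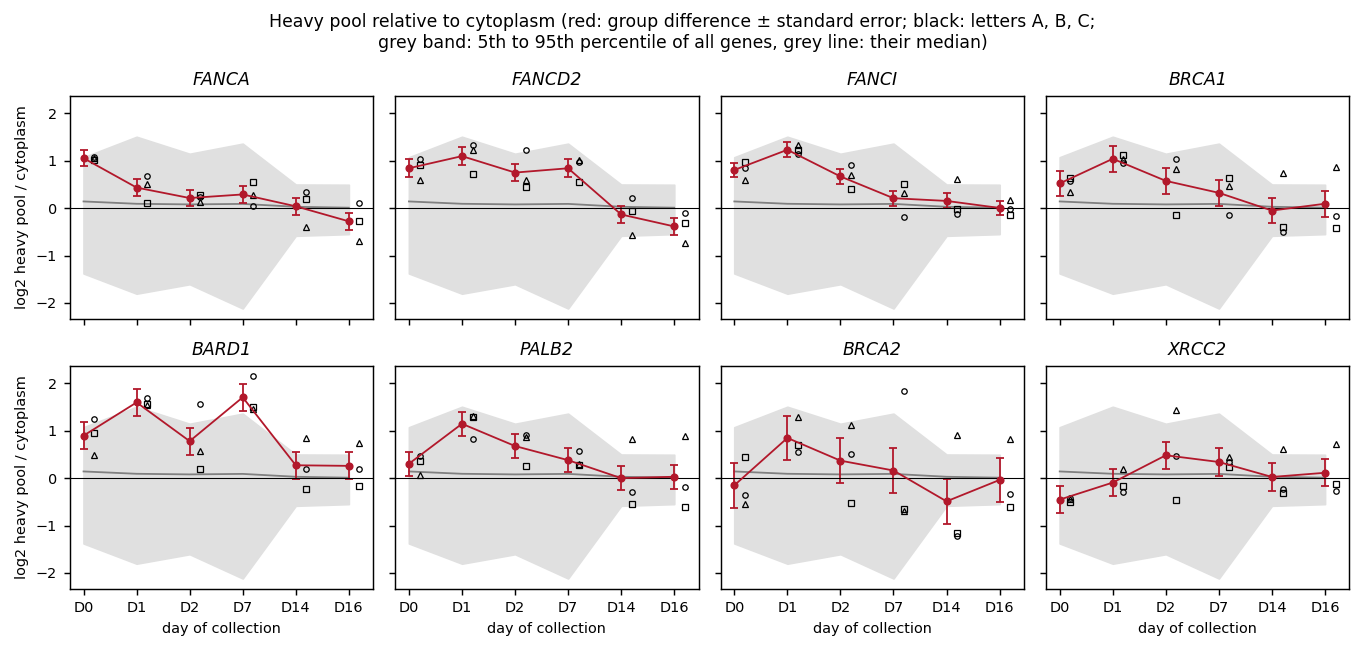
The log2 ratio, heavy pool over cytoplasm, by day for each member, with the group difference and its standard error in red, the 3 letters in black, and the 5th to 95th percentile of all genes as a grey band. The band narrows at D14 and D16, where FANCA, FANCD2 and FANCI lie between -0.39 and 0.15 after values of 0.80 to 1.05 at D0.

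The change of that ratio from D0 was tested as an interaction in the fit of all 36 libraries. FANCA, FANCD2 and FANCI were lower relative to the cytoplasm at D14 and D16 than at D0. At D14 the changes were -1.01 ± 0.25 for FANCA (adjusted p = 0.0041), -0.97 ± 0.26 for FANCD2 (adjusted p = 0.0074) and -0.65 ± 0.22 for FANCI (adjusted p = 0.0282), and 16.7 percent of all genes were called lower. At D16 they were -1.33 ± 0.25 for FANCA (adjusted p = 0.00032), -1.23 ± 0.26 for FANCD2 (adjusted p = 0.0010) and -0.80 ± 0.22 for FANCI (adjusted p = 0.0072), with 17.9 percent of genes called lower. The values per letter come from the same libraries as this test. For FANCA the log2 ratio in A, B and C was 0.12, -0.69 and -0.26 at D16, against 1.09, 1.05 and 1.02 at D0. For FANCD2 it was -0.11, -0.73 and -0.32 at D16, against 1.03, 0.59 and 0.90 at D0. For FANCI it was -0.02, 0.17 and -0.14 at D16, against 0.84, 0.59 and 0.98 at D0. At D14 the letter B of FANCI, at 0.61, reached the lowest D0 value. The other 5 members did not pass at D14 or D16, with values from -0.64 for BARD1 to 0.57 for XRCC2 at D16. Without the cytoplasmic libraries B of these days BRCA1 passed as lower too, at D14 (-0.89, adjusted p = 0.0299) and at D16 (-0.81, adjusted p = 0.0494). With all libraries, the 6 MCM subunits of the replication helicase were each called lower at D14 (median -1.13) and D16 (median -1.62). Of 61 other genes of recombination and the Fanconi pathway, 13 were lower and 6 higher at D14, and 17 were lower and 6 higher at D16.

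The whole table narrowed in this ratio on the same days. The standard deviation over genes of the heavy pool minus the cytoplasm was 0.763 at D0, 1.01 at D1, 0.853 at D2, 1.09 at D7, 0.420 at D14 and 0.357 at D16. The part of this narrowing in the lower ratios of FANCA, FANCD2 and FANCI was not tested. Without the libraries B of D14 and D16 the changes at D14 were -0.81 for FANCA, -0.83 for FANCD2 and -0.83 for FANCI, and all passed. Equal library totals left FANCA (-0.84) as the only call at D14, and FANCA (-1.07) and FANCD2 (-0.97) at D16. At D14 leaving out a letter on all days ended the call of FANCA without B (-0.79) and C (-1.10), of FANCD2 without B (-0.89) and C (-0.98), and of FANCI without A (-0.49) and C (-0.48), and at D16 that of FANCI without C (-0.64). At D1, D2 and D7 limma called 0 of 8 members in either direction (background 4.16, 2.06 and 3.95 percent), with 2 members at an unadjusted p under 0.05 on each day. DESeq2 called 0, 1 and 2 as lower, FANCA at D2 (-0.80, adjusted p = 0.0321) and FANCA and FANCI at D7, and edgeR called 0 on each day.

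In the other genes of the pathway falls outnumbered rises on every day from D2 in both fractions. Of 62 further genes of recombination and the Fanconi pathway, 61 were tested, and CENPS was not listed. In the heavy pool 4 rose and 44 fell at D2 (median -0.71), 6 rose and 38 fell at D7 (median -0.44), 10 rose and 41 fell at D14 (median -0.61), and 8 rose and 40 fell at D16 (median -0.65). At D1, 13 rose and 17 fell (median -0.07). With equal library totals the counts were 20 and 7 at D1, 10 and 34 at D2, 10 and 26 at D7, 17 and 25 at D14 and 17 and 25 at D16, rises first, and the medians from D2 on stayed below 0 (-0.33, -0.15, -0.29 and -0.22). In the cytoplasm 2 rose and 2 fell at D1, 2 rose and 12 fell at D2, 4 rose and 20 fell at D7, 1 rose and 9 fell at D14, and 2 rose and 12 fell at D16. Without library A of D7 the counts at D7 were 1 and 11, and without the libraries B of D14 and D16 those at D2 were 2 and 23. Of all genes tested in the heavy pool, 26.9, 34.5, 36.5, 37.6 and 36.6 percent fell at D1, D2, D7, D14 and D16. In the cytoplasm 10.6, 15.7, 5.05 and 7.26 percent fell at D2, D7, D14 and D16, and 17.9 percent were called in either direction at D1.

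UHRF1, a reader of DNA methylation that also recognises crosslinks, averaged 3574 in the heavy pool at D2, against 21060.5 at D0 (-2.56 ± 0.10, adjusted p = 2.1e-15). FANCG, a core complex subunit like FANCA, averaged 818 at D16, against 4087 at D0, in the heavy pool (-2.32 ± 0.09, adjusted p = 3.4e-15). RPA1, which coats single-stranded DNA, changed by -2.12 ± 0.10 at D14 and -2.36 ± 0.10 at D16 in the heavy pool, the largest falls of this list on those days. EME1, a nuclease subunit that resolves recombination intermediates, fell by 2.19 ± 0.15 at D2, and the BLM helicase (-2.05 ± 0.17) and the nuclease scaffold SLX4 (-1.80 ± 0.12) at D7. At D1 FANCC (-0.97 ± 0.10), another core complex subunit, and ABRAXAS1 (-0.84 ± 0.16), of a BRCA1 complex, fell in the heavy pool, while HROB, which recruits the MCM8 and MCM9 helicase, rose (0.85 ± 0.12).

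In the cytoplasm the same rule named ERCC1 (1.43 ± 0.22) and HROB (1.18 ± 0.34) as higher at D1 and RAD50 (-1.51 ± 0.51, adjusted p = 0.0499), of the complex that senses breaks, as lower. ERCC1, part of the nuclease that cuts beside a crosslink, counted 10777, 12329 and 10180.2 at D1, against 4236, 4047 and 4071 at D0. UHRF1 (-2.02 ± 0.20), RMI1 (-1.91 ± 0.52) and BRCC3 (-1.88 ± 0.66) fell furthest at D2, and BRCC3 (-2.04 ± 0.66), UHRF1 (-1.82 ± 0.20) and FANCG (-1.69 ± 0.30) at D7. RPA1 (-0.99 ± 0.18), FANCG (-0.94 ± 0.30) and EME1 (-0.92 ± 0.19) fell furthest at D14, and RPA3 (-1.06 ± 0.28), FANCG (-1.03 ± 0.30) and XRCC3 (-1.001 ± 0.21) at D16. BRCC3 counted 68.2 in library A of D7, against 538 and 353 in B and C. All of these comparisons share the D0 libraries.

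**Figure D4:**
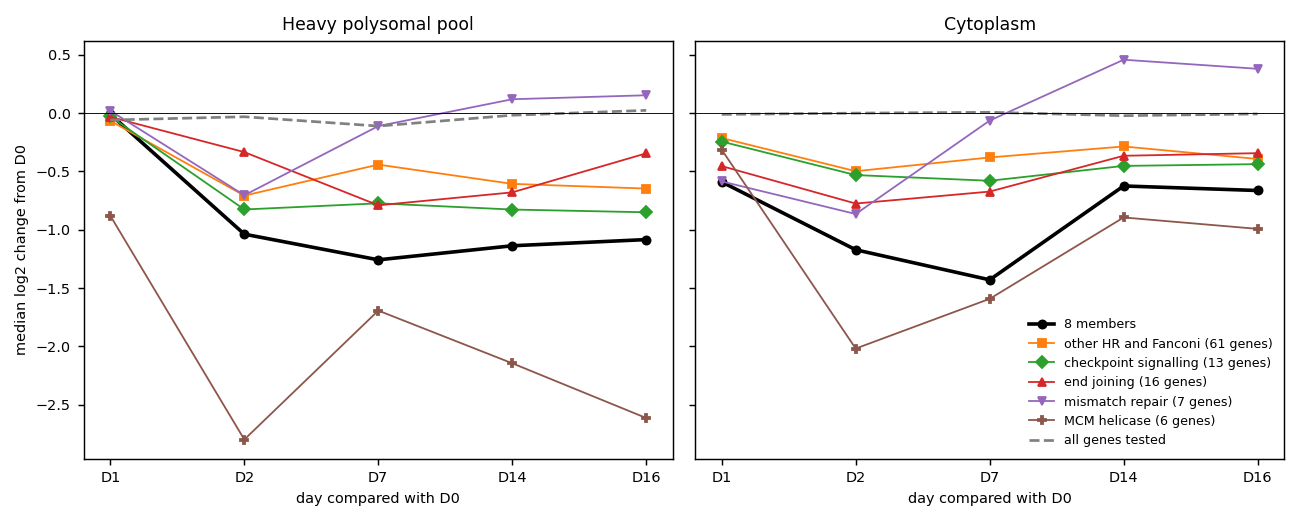
Median log2 change from D0 by day for the 8 members (black), 5 lists of other repair and replication genes, and all genes tested (dashed), in the heavy pool on the left and the cytoplasm on the right. The MCM helicase lay lowest in the heavy pool on every day (-2.80 at D2), and in the heavy pool at D7 mismatch repair (-0.11) was the list nearest to all genes (-0.11).

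Other repair lists give the scale. The 6 subunits of the MCM helicase, which unwinds DNA at replication forks, all fell in the heavy pool on each day from D1 to D16, also with equal library totals, with a median of -2.80 at D2 and -2.61 at D16. Of 13 checkpoint signalling genes 2 rose and 10 fell at D2 (median -0.83), and 3 rose and 9 fell at D16 (median -0.85), against 2 and 7 at D2 and 3 and 8 at D16 with equal library totals. Of 16 end joining genes 1 rose and 8 fell at D2 (median -0.33, which was 0.05 with equal library totals). With the authors' factors 0 rose and 9 fell at D7 (median -0.79), and 2 rose and 9 fell at D14 (median -0.68). At D16, 2 rose and 7 fell (median -0.35, which was 0.08 with equal library totals). Of 7 mismatch repair genes 0 rose and 5 fell at D2, and 3 rose and 3 fell at D14, against 1 and 3 at D2 and 4 and 2 at D14 with equal library totals. In the heavy pool 34.5 percent of all genes tested fell at D2, 36.5 percent at D7, 37.6 percent at D14 and 36.6 percent at D16. Rises made up 46.8, 42.5, 47.8 and 49.7 percent of all calls on those days. The lists were not tested against the members.

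The members were also compared with each other across libraries. Over the 18 heavy pool libraries the 28 pairs had Pearson r from -0.35 to 0.97 with a median of 0.56, the highest being FANCD2 with FANCI and the lowest XRCC2 with PALB2. Over the 18 cytoplasmic libraries r ran from -0.28 to 0.91 with a median of 0.57, the lowest being PALB2 with FANCA. These correlations describe libraries that share 6 days, depth and base composition, and carry no test. The correlation of each member with the mean profile of all 8 in the heavy pool was 0.97 for BRCA1, 0.94 for FANCI, 0.92 for FANCD2, 0.92 for FANCA and 0.90 for BARD1, but 0.60 for BRCA2, 0.48 for PALB2 and 0.48 for XRCC2. In the cytoplasm it was 0.93 for XRCC2, 0.90 for BARD1, 0.84 for BRCA1, 0.79 for FANCI, 0.76 for FANCD2, 0.74 for BRCA2, 0.68 for FANCA and 0.44 for PALB2. Among the protein-coding genes most like that mean profile over the 18 heavy pool libraries were CDCA2 (r 0.991), NCAPG (0.981), RDX (0.973) and ERCC6L (0.970). In the cytoplasm they were TMPO (0.972), DTL (0.965), MCM10 (0.959), BAZ1B (0.955) and CAMK4 (0.948). For single members in the heavy pool the closest gene was SHCBP1 for both FANCD2 (0.991) and FANCI (0.984), KIF18B for FANCA (0.989), CDCA2 for BRCA1 (0.973), NUFIP2 for BARD1 (0.969), TAF1B for PALB2 (0.964), THOC2 for BRCA2 (0.944) and GPSM2 for XRCC2 (0.915).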

How the data were processed

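Per the labels' protocols, RNA was poly(A)-selected and libraries were made with a dUTP strand-marking kit. The submitters' processing notes name FastQC 0.11.9 and cutadapt 3.2, the aligner STAR 2.7.9a with GRCh38, and, for counting and scaling, featureCounts (Subread 2.0.1) with DESeq2 1.30.1. The strand setting and gene filter are not given in the sources used here. Each deposited value is a signal, the reads of a gene over the library's size factor, called a normalised count here. Of 54 table columns, 18 match no sample here and were left out. The table lists genes with a value over 1 in every library, so genes silent in any library were not analysed here. Whole reads were recovered from the step of 1 read (100 percent of values whole to 0.01), and they give the depth.

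Values were transformed to log2(value + 1), and a gene was tested where 3 or more libraries of its fraction reached 10. limma 3.58.1 (lmFit, contrasts, eBayes with trend, R 4.3.3) was fitted over 6 days within a fraction, and over 12 groups for the heavy pool against the cytoplasm and its change from D0. Tests were two-sided, with Benjamini-Hochberg adjustment over all genes tested and a threshold of 0.05. On the recovered reads this was repeated with edgeR 4.0.16 and DESeq2 1.42.0. The steps were tested on simulated data. The other alternatives were a pseudocount of 5, no filter, a filter of 100, equal library totals, TMM, the letter as a block and leaving out each letter. Alternatives without cytoplasmic library A of D7 or libraries B of D14 and D16 were chosen after seeing the data. Gene lengths, coordinates and overlaps came from GENCODE 29, and promoter sequences from RefSeq.

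The members and gene lists were chosen with earlier results of these data known. Named are the members and, in each comparison with D0, up to 3 called genes of the pathway list with the largest changes. For likeness, the 5 protein-coding genes with the highest Pearson r to the mean member profile of a fraction and the closest gene to each member are named. A few genes that fit these criteria are left out of the text.

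In the labels a letter marks a batch, so libraries of a letter could be paired. The main fits did not use the letter, and the fit with the letter as a block was an alternative. As a check, deviations from group means were correlated between libraries of a letter. Across days the mean r was 0.191 for cytoplasmic pairs, 27 of 45 being over 0.1, and 0.0675 for heavy pool pairs, 20 of 45. Between fractions it was -0.0009, 5 of 18 being over 0.1.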

Additional observations from a re-analysis of the deposited data

Results flagged for a closer look

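The changes of FANCA, FANCD2 and FANCI from D0 differed between the heavy pool and the cytoplasm, by the interaction term of the limma fit. At D14 the change in the heavy pool minus that in the cytoplasm was -1.01 for FANCA, -0.97 for FANCD2 and -0.65 for FANCI. At D16 it was -1.33 for FANCA, -1.23 for FANCD2 and -0.80 for FANCI. Of all genes, 16.7 percent were called lower on this term at D14 and 17.9 percent at D16. The standard deviation of the ratio over genes was 0.763 at D0, 0.420 at D14 and 0.357 at D16. With equal library totals FANCD2 and FANCI did not pass at D14, nor FANCI at D16. Leaving out single letters ended each of the D14 calls and that of FANCI at D16. FANCA at D16 had changed by -2.11 ± 0.09 in the heavy pool and by -0.78 ± 0.23 in the cytoplasm. FANCD2 at D16 had changed by -1.90 ± 0.10 in the heavy pool and by -0.68 ± 0.25 in the cytoplasm, and FANCI by -1.45 ± 0.09 and -0.65 ± 0.21.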

How the results depend on the processing

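No called value of a member changed sign under any alternative tried. Of 88 calls of members over all comparisons, 88 were kept with a pseudocount of 5, without the filter, with a filter of 100 and with the letter as a block. TMM kept 87, DESeq2 85, edgeR 84 and equal library totals 74. Each member reached 100 in 3 or more libraries of each fraction, so no filter tried could drop one. Many of these comparisons share libraries. Leaving out letter A, B or C kept 69, 72 and 63. Without cytoplasmic library A of D7, 42 of 45 calls were kept, and without libraries B of D14 and D16, 43 of 45. Leaving out libraries also lowers the degrees of freedom of the fit.

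With the letter as a block, 2 members fell in the cytoplasm at D1 (0 without the block), 2 fell at D14 (1 without it), and no other call of a member changed except BRCA2 in the heavy pool at D2 and FANCD2 in the cytoplasm at D16. With equal library totals the counts were 0 falls in the cytoplasm at D16, 1 fall between D1 and D2 there, 3 rises at D1, 1 rise at D2 and 1 rise at D16 in the heavy pool, 4 falls and 0 rises between D2 and D7, 7 higher than the cytoplasm at D2 and 7 at D7, and 1 lower ratio at D14. With edgeR they were 1 cytoplasmic fall at D16, and 2 rises at D1 and 1 at D2 in the heavy pool. With DESeq2 they were 1 cytoplasmic fall at D1, 2 rises at D1 in the heavy pool, and 1 lower ratio at D2 and 2 at D7. Without cytoplasmic library A of D7, 2 members rose between D7 and D14 in the cytoplasm, 4 were higher in the heavy pool at D7 and 1 ratio was lower at D2. Without libraries B of D14 and D16, 1 member fell at D1 and 3 at D14 in the cytoplasm, and the ratio to the cytoplasm was lower for 1 and higher for 1 at D1, lower for 1 at D2 and lower for 1 at D7. BRCA1 was then called with a lower ratio at D14 and D16 as well.

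Leaving out each letter gave, in the cytoplasm, 2 to 6 falls at D7, 0 to 1 at D14, 0 to 1 at D16 and 0 to 2 between D1 and D2, and 0 to 3 rises between D7 and D14. In the heavy pool it gave 0 to 3 rises at D1, 0 to 1 rises at D2, 1 to 2 falls and 0 to 1 rises between D2 and D7, 0 to 1 falls between D7 and D14 and 0 to 1 between D14 and D16. It gave 1 to 6 members higher in the heavy pool at D2 and 0 to 2 with a lower ratio at D14. Over all genes, the cytoplasmic calls at D1 numbered 2850, and 531 to 4271 with a letter or the single libraries named above left out. Those at D7 numbered 5398, and 1322 to 6481. At D14 they numbered 2035, and 253 to 2612, and at D16 2659, and 438 to 3290.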
